A study of Mus musculus with 20 samples.

Results

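Oxidative phosphorylation (OXPHOS) subunits encoded in the nucleus were followed as 1 module, complex by complex. Members were the protein-coding genes of the mouse GRCm38 annotation whose symbols begin with Nduf (subunit letters a, b, c, s or v, then a digit), Sdha to Sdhd, Uqcr, Cox4 to Cox8 or Atp5, with the Ndufaf assembly factors left out. They were 84 of the 46078 genes in the count tables: 37 of complex I, 4 of complex II, 8 of complex III, 18 of complex IV and 17 of complex V. RNA came from brain tissue of male C57BL/6J wild-type mice, 18 months old, taken 7 weeks after DH stroke, which joins occlusion of the distal middle cerebral artery to hypoxia. The vehicle groups received sterile PBS and the HPBCD groups 4 g/kg 2-hydroxypropyl-β-cyclodextrin, a sugar ring that carries cholesterol, by subcutaneous injection 3 times a week for 6 weeks from week 1. The infarct itself was removed, the adjacent tissue was the peri-infarct region, and the matching region of the other hemisphere was the contralateral region, with 5 libraries for each region and treatment and 20 in all. Every animal had a stroke, so the contralateral libraries are the reference and not uninjured brain. No gene in the tables checks the treatment label, so HPBCD refers to the libraries labelled so.

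Complexes I to IV form the electron transport chain of the inner mitochondrial membrane. Complex I takes electrons from NADH and complex II from succinate, complex III passes them to cytochrome c, and complex IV hands them to oxygen, while complex V, the ATP synthase, uses the proton gradient so built. Complex II is also the succinate dehydrogenase of the citric acid cycle, and it is the complex whose subunits are all nuclear genes; each of the others joins nuclear subunits to subunits made from mitochondrial DNA. Neurons, and fast-spiking interneurons above all, are known for a high demand on this system.

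Gene counts per library were 14445021 to 22171627 (median 19008532), so that 3 counts amount to 0.135 to 0.208 CPM, the counts relative to library size; such floors cover counting error only. Of the 84 members, 81 passed the filter on low counts in each comparison of 2 groups. Cox7b2, Cox8b and Cox8c, which are tissue-restricted isoforms of complex IV, did not pass. All 12 neuron markers were above 0 in each of the 4 groups. Vehicle contralateral replicate 1 stood apart with 3380 summed CPM of 8 striatal neuron markers, against 197 to 283 in the other 4 libraries of its group, and 56.6 CPM of lymphocyte markers, against 2.34 to 5.63. Among HPBCD contralateral libraries, replicate 3 had 642 summed CPM of ependyma and choroid plexus markers, against 5.87 to 12.8 in the others. HPBCD contralateral replicate 4 was the shallowest library and had 8.03% ambiguous and 9.50% no-feature reads, against 3.94% to 4.16% and 4.39% to 5.86% in the other 19. Vehicle contralateral replicate 4 had the lowest member levels of its group, and HPBCD contralateral replicate 1 the highest.

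Proximal promoters of the members were read to show where the family's known regulators could meet it. RefSeq promoter windows (GRCm38.p6, 250 bases before to 50 bases after a start site) were matched by symbol for 66 of the 84 members, with 71 windows. Short cores were searched on both strands: CGCATGCG for NRF1, CCGGAAG for GABP, AAGGTCA for the estrogen-related receptors, AAGATGGC for YY1 and GGGCGG for the GC box; no core contains another, though neighbouring matches can share bases at their ends. NRF1 and GABP are transcription factors long known for binding nuclear genes of the respiratory chain. The windows printed here are 1 or 2 per complex, picked after their values were seen as examples of the NRF1, GABP and YY1 cores; each is written 5′ to 3′ on the gene's strand with the core in capitals, and those of Ndufs7, Sdhb, Uqcrc1 and Cox8a lie at or after the start site.
Ndufs3 (chr2:90904722-90904788, minus strand): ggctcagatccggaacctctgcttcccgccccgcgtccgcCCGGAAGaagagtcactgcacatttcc
Ndufs7 (chr10:80249462-80249491, plus strand): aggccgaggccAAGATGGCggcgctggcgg
Sdhb (chr4:140961266-140961294, plus strand): gctcggagaaaCCGGAAGcggccttccac
Uqcrc1 (chr9:108936668-108936697, plus strand): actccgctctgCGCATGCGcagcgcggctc
Cox6a1 (chr5:115349072-115349159, minus strand): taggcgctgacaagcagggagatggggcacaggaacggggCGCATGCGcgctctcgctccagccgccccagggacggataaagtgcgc
Cox8a (chr19:7217604-7217632, minus strand): tttccgaaataCTTCCGGctcgggcgtcc
Atp5j (chr16:84835076-84835163, minus strand): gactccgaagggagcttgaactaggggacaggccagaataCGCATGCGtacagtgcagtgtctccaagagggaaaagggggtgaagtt

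The NRF1 core is capitalized in Uqcrc1, Cox6a1 and Atp5j, the GABP core in Ndufs3, Sdhb and (as its reverse complement) Cox8a, and the YY1 core in Ndufs7. NRF1 cores were found in 9 of the 66 members (13.6%) against 2.1% of the 27025 genes in the table. For GABP the counts were 16 members (24.2%) against 9.9%, for YY1 9 members (13.6%) against 3.2% and for the estrogen-related receptors 8 members (12.1%) against 5.4%. GC boxes were about as frequent in members (39.4%) as in all genes (38.2%). By complex, YY1 cores were found in 7 of 32 matched complex I genes and 2 of 13 of complex V, and in none of complexes II, III and IV. The NRF1 core stood in 4 of 13 complex V genes, 2 of 5 of complex III, 2 of 32 of complex I, 1 of 13 of complex IV and none of 3 of complex II. A match is a string in a window and not a shown binding site. The background holds all genes of the table, expressed in this tissue or not. Whether other highly expressed genes share the excess was not tested.

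Levels of the subunits were compared with each other per kilobase of transcript, in vehicle contralateral tissue. Cox8a, a small subunit of complex IV, had the highest level, at 1041 ± 150 CPM per kilobase (SD, n = 5), followed by Cox6a1, another small subunit of complex IV, at 789 ± 112. Atp5b, the catalytic β subunit of the ATP synthase, had 597 ± 34.1 and Atp5a1, its α partner, 355 ± 12.4. Cox8a lay above Cox6a1 in every vehicle contralateral library, and the mean of Atp5b lay below both. The median over members was 104 CPM per kilobase in complex I, 89.2 in complex II, 158 in complex III, 128 in complex IV and 149 in complex V. At the other end stood isoforms known from other tissues: Ndufa4l2 at 2.41, Cox7a1 at 2.02, Cox4i2 at 1.99 and Cox6b2 at 1.65 CPM per kilobase, then Cox7b2 at 0.636 and Cox8b at 0.361, while Cox8c had 1 count over the 20 libraries. Members together took 1.06% ± 0.0688 of the gene counts in vehicle contralateral tissue (SD, n = 5), 0.888% ± 0.0418 in vehicle peri-infarct, 1.03% ± 0.125 in HPBCD contralateral and 0.835% ± 0.0405 in HPBCD peri-infarct tissue.

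The first comparison asked how the module differed between peri-infarct and contralateral tissue of vehicle mice. Subunits were lower beside the infarct: of 81 tested members, 61 (75.3%) passed the edgeR test as lower at an adjusted p-value under 0.05 and 1, Cox6b2, as higher, against 9.7% lower and 10.5% higher among all 15801 genes tested. The median log2 change over the members was -0.39, against 0.01 over all genes, and 78 members were below 0. For 30 members that were lower, and for Cox6b2, no peri-infarct library reached the range of the contralateral ones, and 6.7% of all genes were lower without overlap. Complexes differed in depth. The median change was -0.39 in complex I (30 of 37 lower), -0.23 in complex II (1 of 4), -0.39 in complex III (6 of 8), -0.44 in complex IV (11 of 15, with Cox6b2 higher) and -0.38 in complex V (13 of 17). In bulk tissue, fewer cells of a type and less RNA per cell cannot be told apart.

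**Figure D1:**
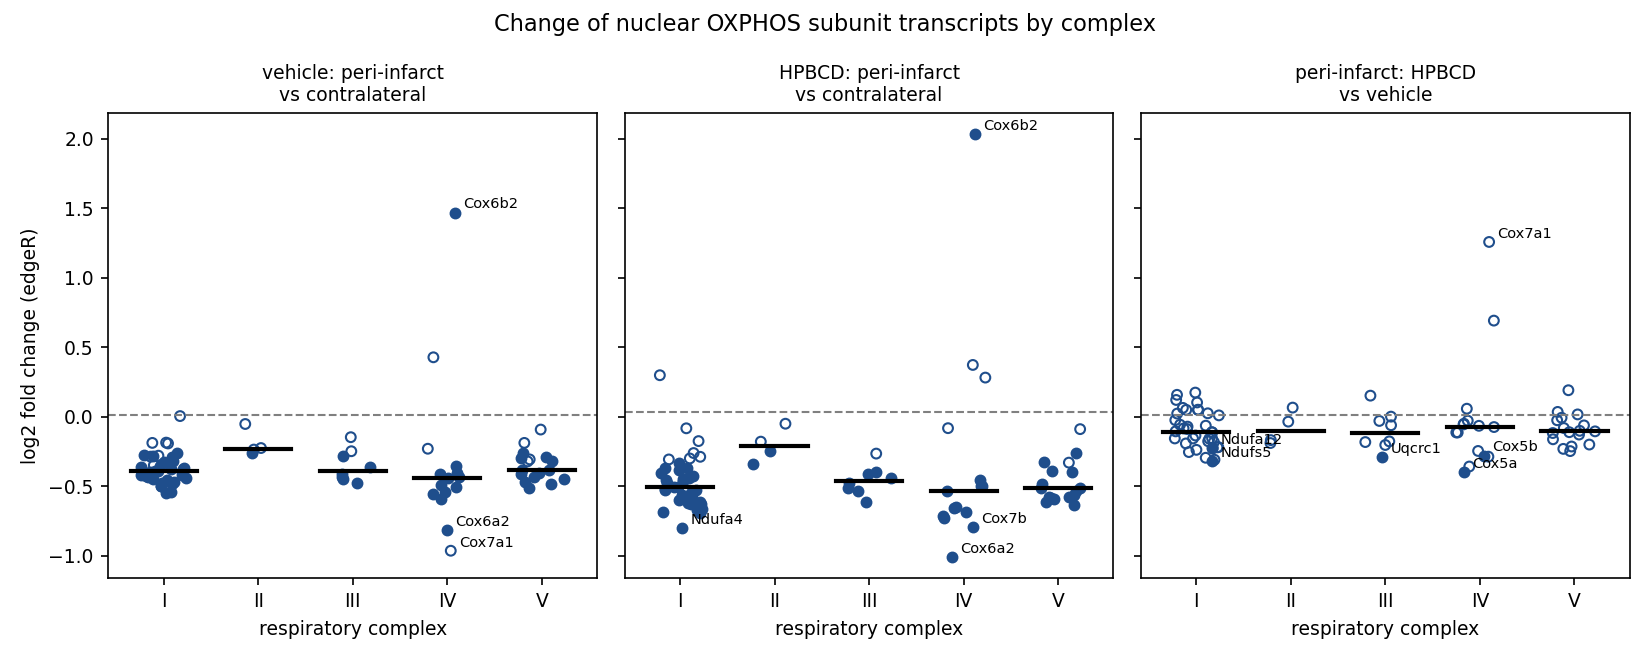
Log2 change (edgeR) of each tested member, grouped by complex, for the region comparison (peri-infarct against contralateral) of each treatment and for HPBCD against vehicle beside the infarct; filled points passed an adjusted p-value of 0.05, black bars are the complex medians and the dashed line is the median of all genes tested. Complex II lies closest to 0 in both region comparisons, with medians of -0.23 and -0.21, and most points of the treatment comparison are open.

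Within complex I, the 7 core subunits carry the flavin and iron-sulfur clusters, and the 30 accessory subunits surround them. Of the core subunits, 6 were lower (median -0.32), and of the accessory subunits 24 (median -0.39). Ndufv2, an iron-sulfur subunit of the NADH-oxidizing end, had 95.7, 103.5, 83.3, 90.9 and 89.0 CPM in the vehicle peri-infarct libraries and 117.2, 119.5, 122.6, 108.5 and 120.6 in the contralateral ones. Every peri-infarct value lay under every contralateral value, with replicate 4 the lowest contralateral library, and the log2 change was -0.36 ± 0.069 (SE, adjusted p = 0.00597). Its flavin-bearing partner Ndufv1 fell by 0.29 (adjusted p = 0.0191) on the log2 scale. Among the other subunits, Ndufs7 changed by -0.39 (adjusted p = 0.00936), Ndufs3 by -0.32 (adjusted p = 0.0159) and Ndufs8 by -0.27 (adjusted p = 0.0224). Ndufs1, the largest core subunit, did not pass at -0.19 (adjusted p = 0.0553), although its groups did not overlap.

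Ndufa4 showed the largest fall of the symbols in complex I. Its protein is now regarded as a subunit of complex IV, although the name and the rule place it in complex I. It had 107.3, 113.0, 95.9, 101.3 and 99.3 CPM in vehicle peri-infarct libraries and 140.1, 166.4, 159.5, 125.3 and 157.3 in contralateral ones. The groups did not overlap, and the log2 change was -0.55 ± 0.086 (SE, adjusted p = 0.00264). Its paralogue Ndufa4l2, known as a hypoxia-induced gene of pericytes, held about the same low level in both regions, at 2.25 ± 0.262 CPM in contralateral and 2.28 ± 0.645 in peri-infarct libraries (SD, n = 5).

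Complex II was the least lowered complex. Sdha, the flavoprotein that oxidizes succinate, had 409.1, 400.7, 385.4, 403.0 and 436.2 CPM in vehicle peri-infarct libraries and 420.9, 386.5, 411.6, 435.0 and 434.5 in contralateral ones. These ranges overlap almost fully, and the log2 change was -0.05 ± 0.06 (SE, adjusted p = 0.587). Sdhb, the iron-sulfur subunit bound to Sdha, had 122.3, 122.7, 122.5, 123.0 and 125.2 CPM against 137.1, 145.4, 160.1, 132.7 and 156.7. Here the groups were separate, and the log2 change was -0.26 ± 0.064 (SE, adjusted p = 0.0158). The membrane anchors Sdhc (-0.23, adjusted p = 0.0786) and Sdhd (-0.22, adjusted p = 0.0549) did not pass. Both were called lower with DESeq2 and voom, and Sdhd also with RLE scaling and with the replicate block that pairs the regions (adjusted p = 0.0461), so the count of 1 of 4 depends on the fit. Complex II held 0.0698% ± 0.00222 of all gene counts in contralateral and 0.0678% ± 0.00285 in peri-infarct libraries (SD, n = 5), ranges that overlap.

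In complex III, the Rieske protein Uqcrfs1, which carries the iron-sulfur cluster that feeds cytochrome c1, fell by 0.36 on the log2 scale (adjusted p = 0.00453). The core protein Uqcrc1 had 235.8, 244.6, 230.5, 233.3 and 248.8 CPM in vehicle peri-infarct libraries and 282.6, 270.2, 310.2, 275.6 and 297.7 in contralateral ones. The groups did not overlap, and the log2 change was -0.28 ± 0.059 (SE, adjusted p = 0.00882). Its partner core protein Uqcrc2 did not pass, at -0.15 (adjusted p = 0.149). Of the 5 small subunits 4 were lower, with a median of -0.43, and Uqcrq, which sits beside cytochrome b, changed most at -0.47 (adjusted p = 0.0152).

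Complex IV held both the most lowered subunits and the exception. Each of the 10 general isoforms was lower, by -0.35 to -0.59, with a median of -0.46. Cox5a, which binds on the matrix side, had 36.2, 35.8, 34.3, 36.6 and 36.5 CPM in vehicle peri-infarct libraries and 50.8, 55.6, 55.5, 41.6 and 55.6 in contralateral ones. The peri-infarct values were tightly grouped under all contralateral ones, and Cox5a fell by 31.3% (log2 change -0.54 ± 0.082, SE, adjusted p = 0.00244). Cox7b, a small membrane subunit, changed by -0.59 (adjusted p = 0.0024), Cox8a by -0.50 (adjusted p = 0.0157), Cox6a1 by -0.49 (adjusted p = 0.0139) and Cox5b by -0.41 (adjusted p = 0.0137).

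The tissue-restricted isoforms of complex IV went separate ways. Cox6a2 (chr7:128205435-128206387, minus strand) and Cox6b2 (chr7:4751792-4753094, minus strand, both GRCm38) are short genes on 1 chromosome. Cox6a2, the heart and muscle partner of Cox6a1 that is also known from fast-spiking interneurons, had 6.07, 5.90, 7.07, 6.79 and 5.41 CPM in vehicle peri-infarct libraries and 11.99, 14.2, 11.3, 6.31 and 10.7 in contralateral ones. Contralateral replicate 4 lay inside the peri-infarct range and the others above it, and the log2 change was -0.82 ± 0.189 (SE, adjusted p = 0.0126). Cox6b2, the testis isoform of Cox6b1, had 1.33, 1.59, 2.43, 3.11 and 2.30 CPM beside the infarct and 0.605, 0.600, 1.19, 0.762 and 0.689 in contralateral tissue. It was the member that rose, with no overlap and a log2 change of 1.47 ± 0.291 (SE, adjusted p = 0.00675), on 3 to 98 counts per library over the 20 libraries. Cox7a1, the muscle isoform of Cox7a2, had only 2 to 30 counts per library and did not pass (-0.96, adjusted p = 0.0948), nor did Cox4i2, the hypoxia-linked isoform of Cox4i1 (0.43, adjusted p = 0.356). Of 6 muscle markers, 4 could be tested: none passed in vehicle, and 1 was lower and 2 were higher in HPBCD, with median summed levels of 34.5 CPM in vehicle contralateral and 44 CPM in vehicle peri-infarct libraries. Markers of fast-spiking interneurons, which fell with Cox6a2, are given with the other cell types.

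**Figure D2:**
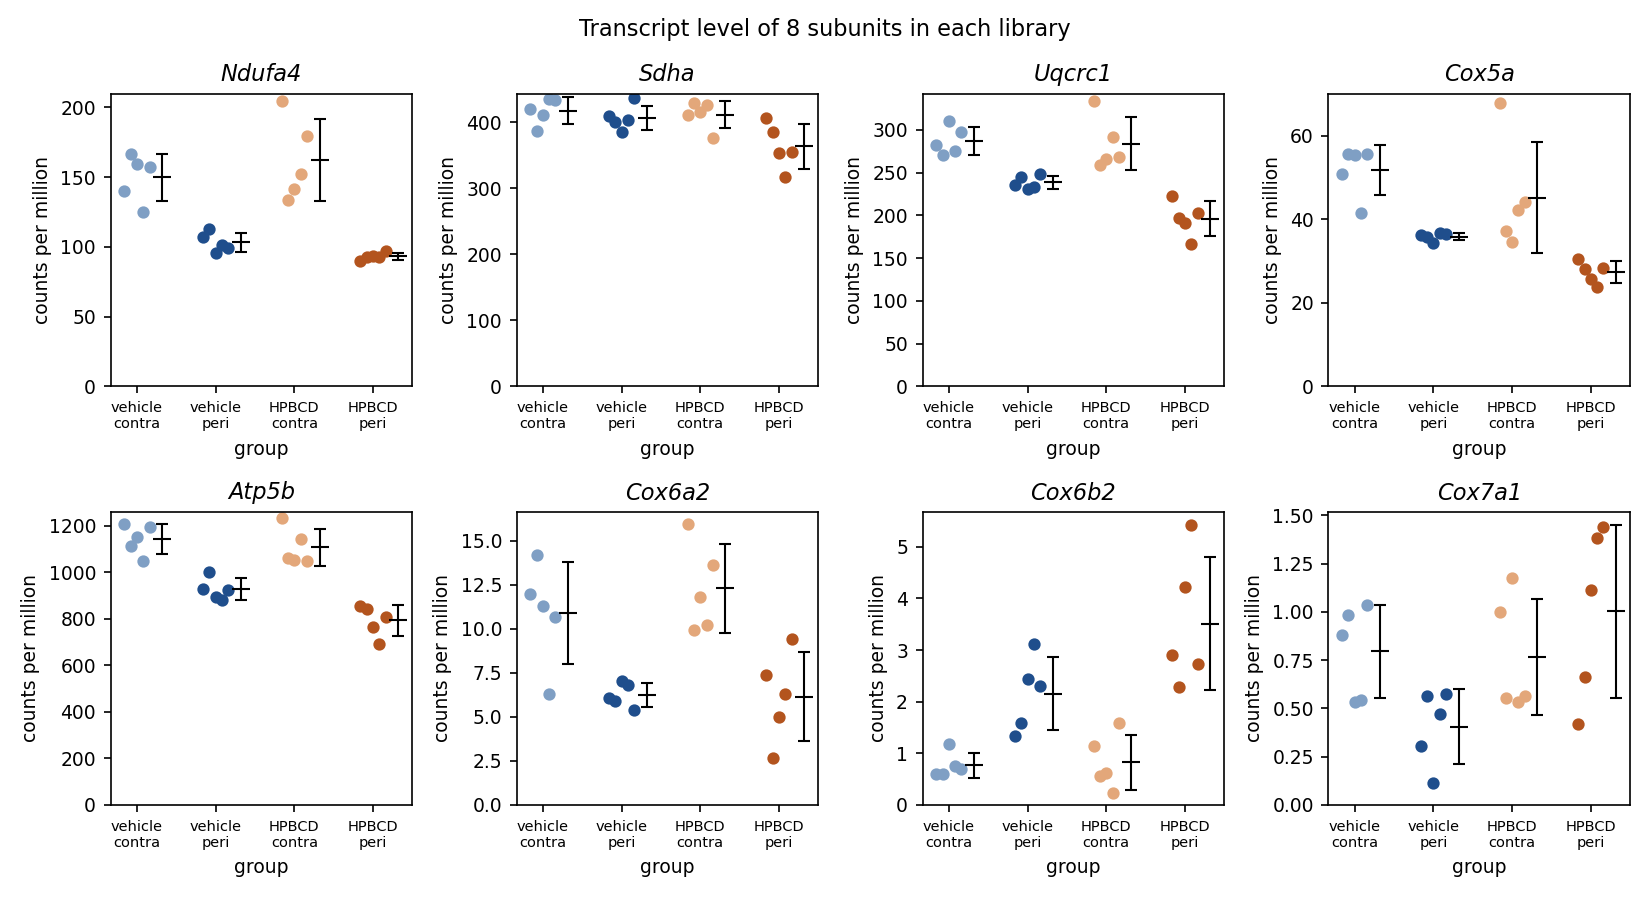
CPM of 8 members in each of the 20 libraries by group, with the mean and SD of 5 libraries beside the points; every axis starts at 0. Sdha runs level across both vehicle groups, while Ndufa4, Uqcrc1, Cox5a and Atp5b are lower in peri-infarct libraries and Cox6b2 is higher.

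In complex V, the peripheral stalk, which holds the head of the ATP synthase still, was lower in all 4 of its genes (median -0.42). Of the 5 genes of the head and central stalk, 3 were lower (median -0.31). Atp5b had 927.7, 1004, 896.0, 881.7 and 926.4 CPM in vehicle peri-infarct libraries and 1208, 1113, 1154, 1048 and 1195 in contralateral ones, without overlap, and its log2 change was -0.31 ± 0.069 (SE, adjusted p = 0.0103). Atp5a1 was not lower by the test, at -0.09 (adjusted p = 0.354), and Atp5c1, the rotating γ subunit, fell by 0.29 (adjusted p = 0.0117). The rotor ring is made of 1 protein encoded by 3 genes, of which Atp5g3 changed by -0.44 (adjusted p = 0.00761), Atp5g1 by -0.30 (adjusted p = 0.045) and Atp5g2 by -0.19 (adjusted p = 0.212). The Atp5g1 call was kept in 2 of 10 fits without a library, those without contralateral replicate 4 or peri-infarct replicate 2, and lost with the replicate block (adjusted p = 0.0539). Atp5mpl, a small membrane subunit, had the largest fall of complex V (-0.51, adjusted p = 0.0241).

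Some of these calls lay close to the threshold and were lost when 1 of several libraries was left out, while the log2 changes stayed below 0: -0.33 to -0.25 for Ndufv1, -0.30 to -0.21 for Sdhb, -0.32 to -0.22 for Ndufs8, -0.61 to -0.40 for Atp5mpl, -0.48 to -0.32 for Cox4i1 and -0.43 to -0.29 for Cox6b1. Ndufv1 lost its call without vehicle contralateral replicate 2 or 3 or peri-infarct replicate 4, where its adjusted p reached 0.0592, and Sdhb without contralateral replicate 3 or 5 (adjusted p = 0.0556 and 0.062). Without the same contralateral replicates 2, 3 or 5, or without peri-infarct replicate 3 or 5, Ndufs8 (adjusted p up to 0.0673) and Atp5mpl (up to 0.0581) were not called, and Atp5mpl also not without peri-infarct replicate 4. Cox4i1 (-0.40, adjusted p = 0.0409) was called in 2 of 10 such fits, those without contralateral replicate 4 or peri-infarct replicate 2, and its adjusted p reached 0.105 in the others. Cox6b1 (-0.35, adjusted p = 0.0337) was called in 4 of 10, those without replicate 1 of either region, contralateral replicate 4 or peri-infarct replicate 2, and its adjusted p reached 0.0941 in the others. The number of members called lower was 43 without contralateral replicate 3, 54 without the striatal-marker library (contralateral replicate 1) and 69 without contralateral replicate 4, while 5.56%, 8.1% and 11.2% of all genes were lower in these fits. The member transcripts are short, with a median length of 720.5 bases against 2538 for all genes tested. A further fit removed a length and GC trend from each library. Its length was the sum of all annotated exons of a gene, which can far exceed the transcript length (Ndufb2: 5628 against 455 bases). A trend in transcript length itself was therefore not removed. With this correction and the replicate block, the median change of the members was -0.27, with 50 called lower beside 8.63% of all genes. In that fit Ndufs7 (adjusted p = 0.0513), Ndufs8 (0.145), Sdhb (0.0537), Cox6a2 (0.051), Cox6b1 (0.103) and, outside the members, Cyc1 (0.0663) were not called, and Ndufs1 was (0.0245). Across the 77 tested members outside the tissue-restricted isoforms, the log2 change correlated with log2 transcript length at r = 0.46 in vehicle and 0.13 in HPBCD. Over all 81 tested members r was 0.14 and -0.07. These are correlations across genes that share libraries and not over independent replicates.

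The same comparison was made in mice given HPBCD, in which a larger share of all genes passed the test. Of 81 tested members, 65 (80.2%) were lower and 1, again Cox6b2, was higher, where 24.3% of all 16047 genes tested were lower and 30.3% higher. The median change was -0.50, against 0.03 over all genes. Replicates did not overlap for 52 members that were lower, against 18.3% of all genes. By complex the median change was -0.50 in complex I (30 of 37 lower), -0.21 in complex II (2 of 4), -0.46 in complex III (7 of 8), -0.53 in complex IV (11 of 15) and -0.51 in complex V (15 of 17). The general isoforms of complex IV had the deepest median of the roles, -0.65, with 10 of 10 lower.

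Ndufa4 had 89.7, 92.4, 93.4, 93.1 and 97.3 CPM in HPBCD peri-infarct libraries and 204.1, 133.2, 141.5, 152.4 and 179.1 in contralateral ones. The peri-infarct libraries differed little among themselves and lay under all contralateral ones, of which replicate 1 was the highest (log2 change -0.80 ± 0.113, SE, adjusted p = 7.16e-05). Atp5f1, the b subunit of the peripheral stalk, changed by -0.63 (adjusted p = 0.000108), Cox7b by -0.79 (adjusted p = 0.00033) and Cox8a by -0.71 (adjusted p = 0.000441). All 7 core subunits of complex I were lower, Ndufs1 included (-0.46, adjusted p = 0.00354), as were all 3 Rieske and core proteins of complex III, with Uqcrc2 at -0.40 (adjusted p = 0.00225).

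Sdha had 406.6, 386.0, 353.6, 317.0 and 354.8 CPM in HPBCD peri-infarct libraries and 411.7, 429.3, 415.5, 426.0 and 376.4 in contralateral ones. The lower end belonged to the peri-infarct libraries, but the ranges overlapped, and the log2 change of -0.18 did not pass in edgeR (adjusted p = 0.128). Sdha was called lower with DESeq2, voom or all 4 groups in 1 fit, 3 of 10 other settings, with an adjusted p down to 0.0236. Sdhb changed by -0.34 (adjusted p = 0.0242) and Sdhc by -0.05 (adjusted p = 0.717). Sdhd passed at -0.24 (adjusted p = 0.0259) but not without HPBCD contralateral replicate 1 or 5 or peri-infarct replicate 1 or 3, where its adjusted p reached 0.0549. Atp5a1 passed at -0.26 (adjusted p = 0.0473) but not with the replicate block (adjusted p = 0.0742), nor without contralateral replicate 1, 2, 3 or 4 or peri-infarct replicate 3, where its adjusted p reached 0.0989. Without contralateral replicate 3, the library rich in choroid plexus and ependyma markers, 64 members were lower, and without contralateral replicate 4, the library with the most ambiguous reads, 62 were, beside 22.5% and 22.1% of all genes.

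Cox6b2 had 2.90, 2.28, 4.22, 5.42 and 2.73 CPM in HPBCD peri-infarct libraries and 1.15, 0.555, 0.621, 0.228 and 1.58 in contralateral ones. It was higher in each peri-infarct library than in any contralateral one (log2 change 2.04 ± 0.39, SE, adjusted p = 0.000724). Cox6a2 had 7.37, 2.69, 4.995, 6.30 and 9.44 CPM against 15.98, 9.94, 11.8, 10.2 and 13.7, again with no overlap (-1.01, adjusted p = 0.00518). Cox7a1 and Cox4i2 did not pass, at 0.37 (adjusted p = 0.425) and 0.28 (adjusted p = 0.528).

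As a share of the counts per kilobase of a pair of isoforms, Cox6b2 made up 1.0% ± 0.29 of the Cox6b1 and Cox6b2 pair in vehicle contralateral, 3.47% ± 1.22 in vehicle peri-infarct, 0.935% ± 0.462 in HPBCD contralateral and 5.57% ± 1.64 in peri-infarct libraries of HPBCD mice (each SD, n = 5). Cox6b1 thus stayed the main isoform throughout. For Cox6a2 in its pair with Cox6a1 the shares were 1.98% ± 0.402, 1.61% ± 0.209, 2.4% ± 0.241 and 1.85% ± 0.607 in the same order. Of the rotor ring genes, Atp5g1 made up 33.4% ± 1.57, 35.7% ± 1.81, 35.6% ± 0.816 and 34.4% ± 1.47 of its pair with Atp5g3, and Atp5g2 13.7% ± 0.56, 16.1% ± 2.3, 12.7% ± 1.84 and 16% ± 1.41 of its own pair with Atp5g3, so that the Atp5g2 mean was higher in peri-infarct libraries of both treatments; these shares were not tested.

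**Figure D3:**
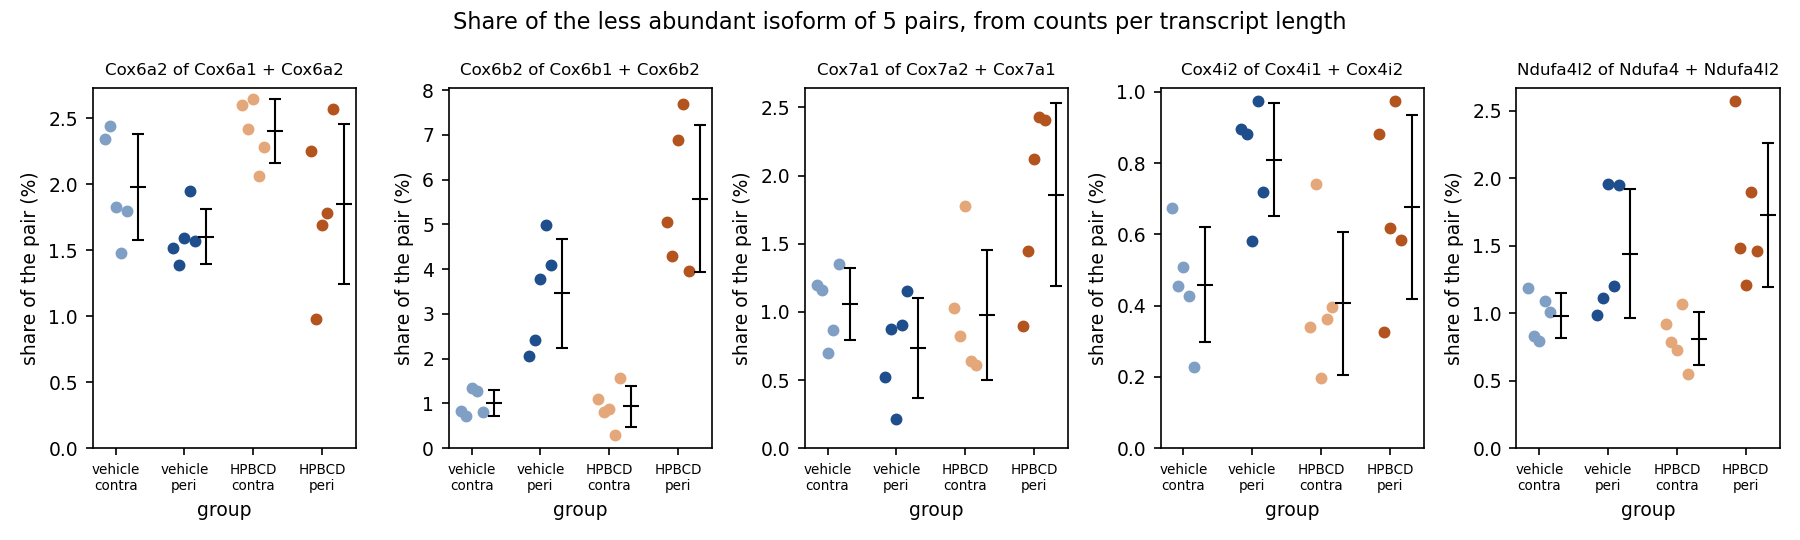
Share of the less abundant isoform in each of 5 isoform pairs, in percent of the counts per kilobase of the pair, by group, with points for libraries and the mean and SD of 5 libraries. Cox6b2 holds a larger share in peri-infarct libraries of both treatments, with no overlap with the contralateral libraries.

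Libraries of both regions with the same number were named with a common identifier by the depositors. This was read as an animal number, and the difference was taken within each such pair. The score of a library was the median over the members of log2 CPM, set relative to the vehicle contralateral group mean. Peri-infarct minus contralateral, the vehicle animals had -0.29, -0.35, -0.47, -0.13 and -0.54 for all members, and the HPBCD animals -0.80, -0.35, -0.35, -0.36 and -0.48. Each of the 5 vehicle and 5 HPBCD animals was lower on the infarct side, by 0.13 in vehicle animal 4, whose contralateral library was low, and by 0.80 in HPBCD animal 1, whose contralateral library was high. For complex II the mean difference was -0.20 ± 0.09 in vehicle and -0.20 ± 0.11 in HPBCD animals (SD, n = 5), and for complex IV -0.41 ± 0.17 and -0.50 ± 0.23. Complex II was the least lowered of the 5 complexes in 4 of 5 vehicle pairs and 5 of 5 HPBCD pairs. In vehicle animal 4 complex III was marginally closer to 0, with -0.09 for both after rounding. By the median change over its members, complex II was also the least lowered in each of the 21 settings of the fit, with medians of -0.28 to -0.14 in vehicle and -0.29 to -0.19 in HPBCD. Complex IV was the most lowered in 20 of 21 settings in vehicle and 15 of 21 in HPBCD. With 4 members in complex II, this order is a description and was not tested. The complex II transcripts are long, at 1142 to 3171 bases against a median of 720.5 over the members. Among long members of other complexes, Ndufs1, Uqcrc2 and Atp5a1 did not pass in vehicle, while Atp5b and Ndufv2 were lower. The part of transcript length in the order was not tested.

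**Figure D4:**
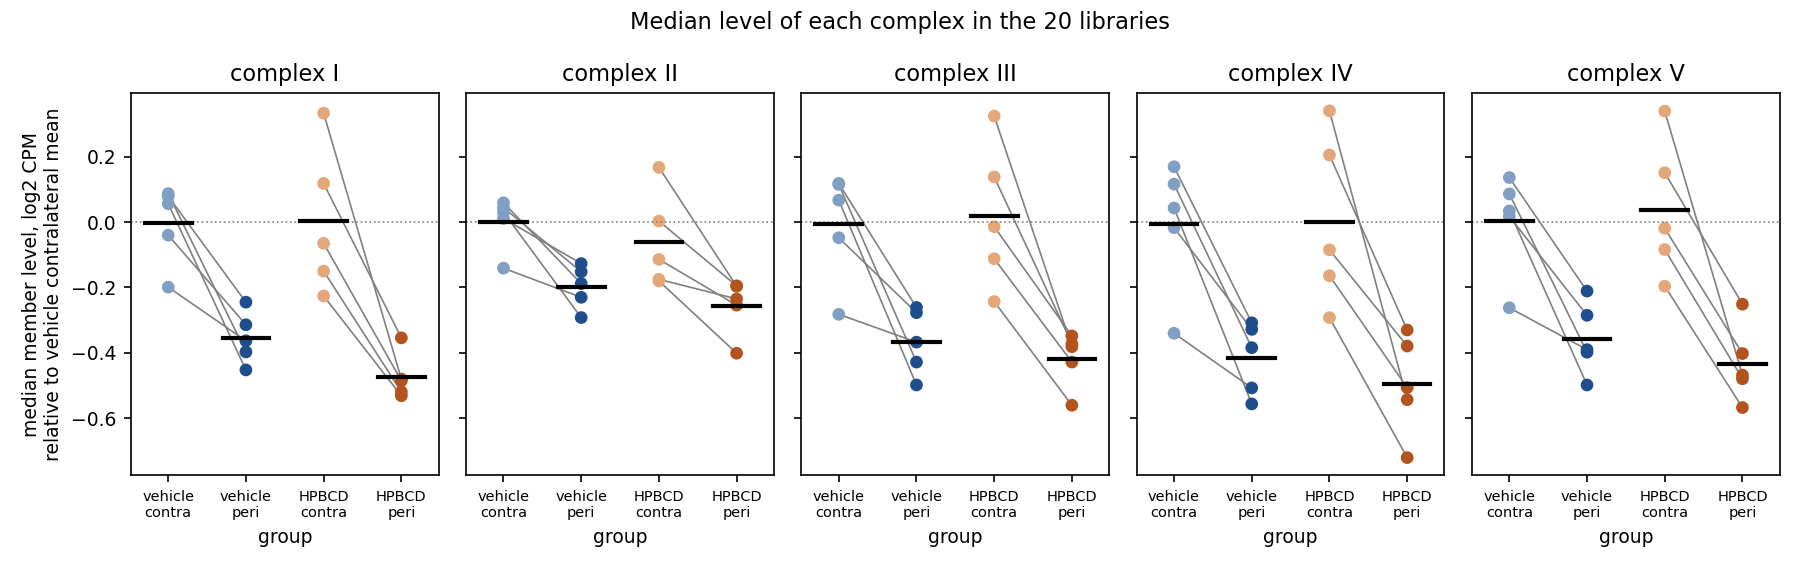
Median over the members of each complex of log2 CPM relative to the mean of the vehicle contralateral libraries, for the 20 libraries by group; grey lines join both regions of an animal and bars are group means. Lines run down to the peri-infarct library in every animal, and complex II has the mean difference closest to 0, -0.20 in both treatments.

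The next comparison asked how HPBCD and vehicle differed in peri-infarct tissue. Of the 81 tested members, 5 were lower and none higher, beside 9.0% lower and 12.4% higher among all 16224 genes tested, so the 6.2% of members called lower was no greater than the background. At an unadjusted p under 0.05, edgeR had 24 members lower and 2 higher, where 6357 of the 16224 genes passed in either direction. DESeq2, which made more false calls than edgeR or voom on simulated data, called 20 members lower and 1 higher, beside 13.8% of all genes lower and 16.1% higher, and limma voom 18 lower and 1 higher, beside 17.2% and 19.9%. The median change was -0.10, against 0.01 over all genes, and 61 members were below 0. Groups did not overlap for 8 members that were lower, against 5.97% of all genes. Neuron markers moved the same way, with 8 of 12 lower (median -0.56). In the same comparison fibroblast markers were higher in 5 of 6 (median 2.55), ependyma and choroid plexus markers in 4 of 8 (1.85), reactive astrocyte markers in 4 of 8 (1.01), astrocyte and pericyte markers each in 3 of 8 (0.33 and 0.49), oligodendrocyte markers in 2 of 8 (0.64), and 1 each of 6 endothelial and 5 lymphocyte markers. Of 6 markers of fast-spiking interneurons 1 was lower (median -0.45), of 4 muscle markers 2 were lower (-0.55), and none of 10 microglial or 8 striatal markers passed. The part of these shifts in the result was not tested. For this contrast the paper reports the other direction, with Gfap and Serpina3n lower and Nefl and Syn1 higher after HPBCD. Here all 12 neuron markers, Nefl and Syn1 among them, were below 0 (-0.88 to -0.2). All 8 reactive astrocyte markers, Gfap and Serpina3n among them, were above 0 (0.63 to 2.01). The reason for this difference was not tested.

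Cox5a had 30.6, 28.2, 25.8, 23.7 and 28.4 CPM in HPBCD peri-infarct libraries, all under the 34.3 to 36.6 CPM of the vehicle peri-infarct libraries. Its log2 change was -0.40 ± 0.08 (SE, adjusted p = 0.0138), and the call held without any 1 of the 10 libraries. The other 4 calls were Ndufs5 (-0.32, adjusted p = 0.0241) and Ndufa12 (-0.23, adjusted p = 0.0327), which are accessory subunits of complex I, Uqcrc1 (-0.29, adjusted p = 0.0373) and Cox5b (-0.28, adjusted p = 0.0394). Uqcrc1 had 223.1, 196.6, 191.4, 166.4 and 203.1 CPM in the HPBCD libraries, all under the lowest vehicle library. None of these 4 calls held without HPBCD peri-infarct replicate 3 or 4 or vehicle peri-infarct replicate 1 or 2, where 1 member was called lower each time beside 1.41%, 4.29%, 2.87% and 2.23% of all genes. Without HPBCD peri-infarct replicate 2, which had the lowest scores of its group, 14 of 82 members were lower beside 16.3% of all genes, and without HPBCD replicate 5 or vehicle replicate 4 the number was 2, beside 4.78% and 5.04%. Sdhb (-0.19, adjusted p = 0.0538) and Atp5b (-0.23, adjusted p = 0.0953) were separate between the groups but did not pass. Cox7a1 was higher in HPBCD by 1.26 ± 0.434 (SE) and did not pass (adjusted p = 0.058), with 0.421, 0.660, 1.11, 1.38 and 1.44 CPM against 0.306, 0.564, 0.113, 0.471 and 0.575, ranges that overlap.

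In contralateral tissue, none of the 81 tested members differed between HPBCD and vehicle by edgeR, as among all 15469 genes (0.0% lower and 0.0% higher). At an unadjusted p under 0.05, 1 member was lower and 2 were higher, where 1224 of all genes passed in either direction, and neither DESeq2 nor limma voom called a member. The median change was -0.00, with 43 members below 0. The spread around it depended on the fit: 71 members were below 0 and 16 lower at an unadjusted p under 0.05 in voom, and 61 and 7 without HPBCD contralateral replicate 1, the library with the highest member levels of its group. Leaving out each of the 10 libraries in turn gave 23 to 61 members below 0. The extremes were Ndufb2, an accessory subunit of complex I, at 0.34 (adjusted p = 0.555) and Atp5g2 at -0.21 (adjusted p = 0.625), and no member's groups were separate.

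The interaction of region with treatment tests whether the regional difference itself changed with HPBCD. None of the 82 tested members, Cox8b now among them, passed in edgeR, where 4.38% of all 16758 genes were lower and 5.03% higher. At an unadjusted p under 0.05, 7 members were lower and 1 was higher, where 4840 of all genes passed in either direction. DESeq2 called 1 member lower, beside 6.96% of all genes lower and 8.04% higher, and limma voom 2 lower and 1 higher, beside 12.9% and 11.6%. The median was -0.14 with 70 members below 0 in edgeR, but 0.04 with 32 below 0 in voom, so its direction depended on the tool; without HPBCD contralateral replicate 1, 49 members were below 0. Atp5s, coupling factor B of the ATP synthase, had -0.31 ± 0.109 (SE, adjusted p = 0.069), Uqcrc2 -0.26 (adjusted p = 0.103), Sdha -0.14 (adjusted p = 0.357) and Cox7a1 1.33 (adjusted p = 0.122).

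Other genes of the pathway were taken from fixed lists, and their counts stand beside the 9.7% of all genes lower in vehicle and 24.3% in HPBCD. Of 49 tested assembly factors, which help build the complexes, 15 were lower and none higher in vehicle peri-infarct against contralateral tissue (median -0.22), and 27 of 48 in HPBCD (median -0.36). Atpaf1, a chaperone of the ATP synthase head, changed by -0.35 (adjusted p = 0.00951) in vehicle and -0.81 (adjusted p = 5.37e-05) in HPBCD. Among 9 electron carriers and related subunits that the symbol rule leaves out, 7 were lower in vehicle (median -0.37) and 6 in HPBCD (median -0.52). Cycs, cytochrome c itself, fell by 0.53 (adjusted p = 0.00295) and 0.82 (adjusted p = 0.000146), and Cyc1, cytochrome c1 of complex III, by 0.33 (adjusted p = 0.011) and 0.52 (adjusted p = 0.000196). Other mitochondrial housekeeping genes, such as channels, import and matrix enzymes, were lower in 9 of 30 (median -0.12) and 14 of 30 (median -0.26). Between HPBCD and vehicle beside the infarct, 2 of 9 carriers and related subunits, 5 of 30 housekeeping genes and none of 49 assembly factors were lower. None of these was higher, beside 9.0% of all genes lower and 12.4% higher. Subunits encoded in mitochondrial DNA had medians of -0.35 in vehicle, where none of 9 tested passed, and -0.45 in HPBCD, where mt-Nd1, mt-Nd2 and mt-Co1 were lower of 8 tested (mt-Nd2 not with the length and GC corrected block, adjusted p = 0.0635); poly(A) selection sets how these transcripts are sampled, and they are not compared with the nuclear genes here.

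Of 20 regulators of OXPHOS transcription, 4 were lower and 3 higher in vehicle, beside the 9.7% and 10.5% of all genes. In HPBCD 5 were lower and 4 higher, beside 24.3% and 30.3% of all genes, which is near or under the background. Of the estrogen-related receptors, nuclear receptors of mitochondrial genes, Esrra and Esrrg were lower, and Esrrb, also listed, is not described here. Esrra changed by -0.70 (adjusted p = 0.00642) in vehicle and -0.76 (adjusted p = 1.04e-05) in HPBCD, and Esrrg by -0.88 (adjusted p = 0.00899) and -1.72 (adjusted p = 3.67e-06). The coactivator Ppargc1a was lower at -0.35 (adjusted p = 0.0264) and -0.69 (adjusted p = 0.000258), the vehicle call being lost without contralateral replicate 2 or 3 or peri-infarct replicate 3 or 5 (adjusted p up to 0.0761). Gabpa, the DNA-binding subunit of GABP, was higher, at 0.43 (adjusted p = 0.0173) and 0.83 (adjusted p = 1.74e-05), and Nfe2l2, the oxidative stress factor, at 1.08 (adjusted p = 0.00685) and 2.12 (adjusted p = 2.13e-06). Gabpa shares 397 bases with Atp5j on the opposite strand, so its counts are uncertain if strand was not used in counting. Between HPBCD and vehicle peri-infarct libraries 2 of the 20 regulators were higher and none lower, beside 12.4% and 9.0% of all genes, so the share was under the background. Gabpa was higher by 0.49 (adjusted p = 0.0138) and Nfe2l2 by 1.14 (adjusted p = 0.0181), the latter not without HPBCD replicate 3 (adjusted p = 0.0504). Members with and without a GABP core had medians of -0.34 and -0.39 in vehicle and -0.47 and -0.50 in HPBCD. For NRF1 cores the medians were -0.32 and -0.38, then -0.53 and -0.50. For cores of the estrogen-related receptors they were -0.39 and -0.38, then -0.56 and -0.49, with 4 and 7 of the 8 tested members that hold one called lower, against 46 and 45 of the other 56.

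Markers of cell types moved with the same comparisons. Their counts stand beside 9.7% of all genes lower and 10.5% higher in vehicle, and 24.3% and 30.3% in HPBCD. Of 12 neuron markers, 6 were lower in vehicle peri-infarct tissue (median -0.36) and 12 in HPBCD (median -1.03). Their summed level was 11800 to 14000 CPM in vehicle contralateral, 7890 to 10600 in vehicle peri-infarct, 13900 to 14900 in HPBCD contralateral and 4090 to 7880 in HPBCD peri-infarct libraries, and no neuron marker was at 0. Of 6 markers of fast-spiking interneurons, 5 and then 6 were lower, with summed levels of 1020 to 1520, 582 to 786, 1600 to 1770 and 341 to 592 CPM in the same order. Every one of 10 microglia and macrophage markers was higher in both region comparisons (median 1.42 and 2.03), as were all 8 reactive astrocyte markers (2.87 and 4.71), with microglial sums of 289 to 333, 479 to 1290, 267 to 324 and 807 to 1510 CPM. Of 8 oligodendrocyte markers none passed in vehicle and 8 were higher in HPBCD (median 1.23), and of 8 striatal neuron markers none passed in vehicle and 8 were higher in HPBCD (median 2.81). The summed striatal level was 333 to 1910 CPM in vehicle peri-infarct libraries, above all vehicle contralateral libraries other than replicate 1. Fibroblast markers were higher in 2 of 6 and 6 of 6, astrocyte markers in 4 of 8 and 5 of 8, and lymphocyte markers in 1 of 2 and 5 of 5 tested, with Cd3d at 0 in both contralateral groups. Ependyma and choroid plexus markers were higher in 1 of 6 and 5 of 8 tested, pericyte and smooth muscle markers in 1 of 8 and 3 of 8, and of 6 endothelial markers none passed in vehicle and 1 was lower and 1 higher in HPBCD. The part of these shifts in the subunit levels was not tested.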

How the data were processed

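The authors prepared stranded mRNA libraries, trimmed read pairs with Trimmomatic 0.32, aligned them to GRCm38 with STAR 2.5.2b and counted them per Ensembl gene with HTSeq. The deposited values are raw counts. The annotation release and the strand option are not given in the sources used here, so the 26 members that overlap an exon on the opposite strand (such as Cox5a, Ndufs1, Cox6a2 and Atp5a1) and the 20 with a near-identical copy elsewhere (such as Ndufs5, Ndufa12, Cox5b and Uqcrc2) have uncertain counts. Symbols came from GENCODE M21. Lines that name no gene, 25.1% to 40.1% of a table, were left out.

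Each pair of groups (10 libraries) and the interaction (20 libraries) were compared with edgeR 4.0.16 (quasi-likelihood F test, R 4.3.3), with TMM factors, filterByExpr and Benjamini-Hochberg adjustment over all genes, at a threshold of 0.05. Standard errors (SE) were derived from F. CPM are TMM-scaled over all libraries. Levels per kilobase used the principal transcript. The alternatives were DESeq2 1.42.0, limma 3.58.1 voom, other scalings and filters, thinned counts, a length and GC correction, a replicate block and leaving out each library. Length in that correction was the sum of all annotated exons of a gene. The tests were run on simulated data, where a larger share of the calls was false with DESeq2 than with edgeR or voom in both comparisons simulated (vehicle regions, and HPBCD against vehicle beside the infarct). The false share of edgeR was 7.4% and 2.7%. The simulation changed 200 genes 2-fold and took its spread from edgeR estimates, so these shares need not hold for the data. Replicates are separate animals.

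The deposited names of same-number libraries of both regions in a treatment carry a common identifier, read here as an animal number, and this is the basis of the pairing; deviations of the 10 pairs correlated weakly, at a mean r of 0.088 with 4 over 0.1, and do not show the pairing by themselves. Between treatments the number is only a name. The members and lists were chosen with earlier results of these data known. Named members were core subunits, isoform pairs, the member with the lowest and highest change per comparison and complex, and members called against the general direction; the printed promoters were chosen after values were seen.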

Additional observations from a re-analysis of the deposited data

Results flagged for a closer look

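Of 96 groups of 5 values examined, 8 held a library far from the other 4, and chance gives about 1 in 20. Vehicle contralateral replicate 4 stood low in 3 of them: members took 0.939% of its gene counts (others 1.07% to 1.1%) and complex I members 0.268% (0.307% to 0.32%), and the complex II score was -0.141 (0.011 to 0.059). In vehicle contralateral replicate 3, Cox6b2 was at 1.19 CPM (0.6 to 0.762). In HPBCD contralateral replicate 1, Cox5a was at 67.9 CPM (34.6 to 44.2). In HPBCD peri-infarct replicate 5 the complex I score was -0.354 (-0.531 to -0.48), and in replicate 2 the complex II score was -0.401 (-0.254 to -0.195). In vehicle peri-infarct replicate 5, Sdhb was at 125 CPM, close to the others at 122 to 123.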

How the results depend on the processing

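In both region comparisons, the counts of members called lower kept within 1.5 times under every alternative: 50 to 72 in vehicle and 60 to 69 in HPBCD (4.51% to 14.9% and 16.1% to 27.5% of all genes), and, leaving out a library, 43 to 69 and 58 to 68 (5.26% to 11.2% and 22.1% to 26.9%). With the replicate block, which pairs the regions of an animal, 61 and 63 members were lower, beside 9.1% and 24.8% of all genes; of the named genes, Atp5g1 in vehicle and Atp5a1 in HPBCD lost their calls and Sdhd in vehicle gained one. The block with length and GC correction moved the vehicle medians to -0.27 for all members, -0.26 for complex I, -0.14 for complex II, -0.24 for complex III and -0.28 for complex IV. Requiring at least 10 counts in every library left Cox6b2 untested, with 0 members higher in HPBCD. Between treatments in peri-infarct tissue, the number lower was 20 with DESeq2, 18 with voom and 14 with length and GC correction (13.8%, 17.2% and 9.39% of all genes). It was 9 with all 4 groups in 1 fit, 8 with RLE scaling and 2 without the filter (13.9%, 9.61% and 3.58%). Leaving out a library, it was 1 to 14 (1.41% to 16.3%). With DESeq2, voom, all 4 groups, thinned counts or the block, 1 was higher, beside 16.1%, 19.9%, 15.8%, 12.3% and 16.1% of all genes. Leaving out a library gave 0 to 2 higher, beside 3.63% to 17.0%. In the interaction, 1 was lower with DESeq2, thinned counts or the corrected block (6.96%, 4.54% and 5.31% of all genes) and 2 with voom (12.9%). Leaving out a library gave 0 to 1 lower, beside 1.29% to 8.26% of all genes. In this comparison voom also called 1 higher (11.6% of all genes). It gave medians of 0.04 for all members, 0.03 for complex I, 0.05 for complex II, 0.09 for complex III and 0.06 for complex IV, reversed from the edgeR direction. In HPBCD, Sdhc turned to 0.04 with voom and ranged from -0.1 to 0.01 leaving out a library (0.01 without contralateral replicate 1 and 0.0 without peri-infarct replicate 2), and Atp5g2 to 0.1 with the corrected block; neither was called. In vehicle, Cox4i1 and Atp5g1 held in 2 of 10 fits without a library, and Cox6b1 in 4. Of 125 results for named genes, 77 kept call and direction throughout; the cause of the changes was not tested. Depth limits Cox8c, Cox7b2, Cox8b, Cox7a1, Cox4i2, Cox6b2 and Ndufa4l2, which rest on few counts.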
